A study of Mus musculus with 125 samples.

Results

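The regions described here are 192 stretches of open chromatin in the mouse genome that carried an ATAC-seq peak in endothelial cells of the brain, the retina, the heart, the lung, the liver and the kidney, both in pups and in adults. They were selected on the presence of peaks, as follows. Overlapping peaks of the 26 P6 and adult endothelial peak lists were merged into 208104 regions, of which 15820 had a peak in at least 1 endothelial library of each of the 6 organs at both ages. Of these, 5052 lay over 2 kb from both outer ends of every annotated gene (alternative starts inside a gene were not counted), and 192 of the 5052 had a peak in at most 8 of the 26 P6 and adult input libraries. The other 4860, with a peak in over 8 inputs, are called the comparison regions below. Because the peaks of the P6 and adult libraries chose the regions, their presence in those libraries is given as a description and was not tested, and the E12 libraries, which the choice did not use, carry the comparisons.

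The study compared chromatin accessibility and gene expression of endothelial cells between organs and ages of the mouse, each beside input nuclei of the same organ. ATAC-seq marks DNA that a transposase can reach, and a peak is a stretch where its cuts pile up. The groups used here are 12 adult, 14 P6 and 11 E12 endothelial ATAC-seq libraries, 10 adult, 16 P6 and 3 E12 input libraries, and 4 single-cell RNA-seq libraries of brain cells, from E9.5 and E12.5 embryos, P8 pups and 2-month-old adults. All ATAC-seq animals received tamoxifen at 0.015 mg/kg, controls included: pregnant dams for embryos collected at E12.5 (labelled E12), pups, and 2-month-old adults 7 days before collection. The protocol text has the pup tissues taken at postnatal day 7, although their label is P6. The vessels of each ATAC-seq tissue were checked for GFP before nuclei were prepared. The genotype, the promoter that drives recombination, the number of animals per library and what the input nuclei contain beyond their organ are not given in the sources used here, so p-values below measure the spread between libraries.

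Endothelial cells line every blood vessel. They share a core program held by transcription factors of the ETS family (Fli1, Ets1), with FOX, SOX and KLF factors, and by signalling through VEGF, Notch and BMP receptors, while each organ adds its own features such as the barrier of brain vessels or the open sinusoids of the liver. Enhancers are stretches of regulatory DNA away from gene starts, and they are usually more restricted to a cell type than the promoters at gene starts.

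Of the 192 regions, 4 overlapped the window around an alternative start in the RefSeq promoter table (250 bases before to 50 after a start, build GRCm38.p6, the same assembly as mm10), and these are the ones whose sequence can be shown. The window of a downstream start of Adgrf5, an adhesion receptor of endothelial and epithelial cells, lies at chr17:43389216-43389515 on the plus strand, wholly inside the region chr17:43388829-43390156. That of Ece1, the enzyme that makes active endothelin, lies at chr4:137920543-137920842 on the plus strand, inside the region chr4:137919571-137921062. The window of Gm10575, at chr7:141463855-141464154 on the minus strand, fills most of the region chr7:141463758-141464223 inside Cracr2b, which had a peak in all 26 endothelial libraries. The start windows of Cldn5 (chr16:18776597-18776896, plus strand), the tight-junction protein of vessels, and Egfl7 (chr2:26580833-26581132, plus strand), a protein secreted by endothelial cells, are shown with them because each of these genes also has a distal region among the 192. Capitals mark the ETS core word GGAAGT or its reverse complement.
Adgrf5 downstream start: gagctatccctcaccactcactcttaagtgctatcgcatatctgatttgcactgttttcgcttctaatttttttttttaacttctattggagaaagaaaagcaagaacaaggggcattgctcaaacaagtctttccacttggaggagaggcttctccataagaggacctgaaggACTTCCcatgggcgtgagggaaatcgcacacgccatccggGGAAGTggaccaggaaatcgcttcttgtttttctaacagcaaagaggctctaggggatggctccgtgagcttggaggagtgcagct
Ece1 downstream start: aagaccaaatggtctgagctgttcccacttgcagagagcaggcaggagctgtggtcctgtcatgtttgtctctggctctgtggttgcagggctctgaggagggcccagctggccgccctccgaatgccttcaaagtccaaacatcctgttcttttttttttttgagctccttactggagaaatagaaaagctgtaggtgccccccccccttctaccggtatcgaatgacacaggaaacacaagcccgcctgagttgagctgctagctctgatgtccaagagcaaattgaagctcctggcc
Gm10575 start: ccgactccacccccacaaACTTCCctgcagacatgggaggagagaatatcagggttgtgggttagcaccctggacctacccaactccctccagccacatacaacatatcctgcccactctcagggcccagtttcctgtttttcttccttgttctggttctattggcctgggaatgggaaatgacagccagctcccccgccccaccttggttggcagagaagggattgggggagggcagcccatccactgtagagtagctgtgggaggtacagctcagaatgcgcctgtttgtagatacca
Egfl7 annotated start: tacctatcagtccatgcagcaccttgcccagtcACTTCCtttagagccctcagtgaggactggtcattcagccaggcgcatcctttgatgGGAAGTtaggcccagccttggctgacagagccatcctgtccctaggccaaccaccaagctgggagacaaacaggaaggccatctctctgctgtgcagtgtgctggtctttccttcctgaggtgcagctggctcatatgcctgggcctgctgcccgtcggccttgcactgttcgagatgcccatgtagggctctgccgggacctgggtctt
Cldn5 annotated start: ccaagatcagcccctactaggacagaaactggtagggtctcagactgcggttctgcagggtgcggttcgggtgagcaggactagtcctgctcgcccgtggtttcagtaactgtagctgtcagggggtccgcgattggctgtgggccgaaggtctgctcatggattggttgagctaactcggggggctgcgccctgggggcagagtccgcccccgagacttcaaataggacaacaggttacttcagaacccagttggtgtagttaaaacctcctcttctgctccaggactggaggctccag
The ETS word occurs 2 times in the Adgrf5 window, 2 times in the Egfl7 window, 1 time in the Gm10575 window and 0 times in those of Ece1, Cldn5 and Sp110. The Sp110 window, not printed here, is the fourth overlapping window, and 240 of its 300 bases lie in a region inside Sp110. Among all 32851 promoter windows of the same length, 23.8% hold it on either strand. The box GGGCGG, a word bound by KLF and SP factors, occurs 1 time each in the windows of Ece1, Gm10575, Cldn5 and Sp110, and 35.7% of all windows hold it. None of these 6 windows holds the SOX word AACAAT or the GATA word AGATAA, which occur in 10.7% and 11.2% of all windows. Each word was counted on its own, GGGCGG and GGAAGT can share letters, and a match describes the sequence only.

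Peak lists held 19464 to 92863 peaks in the P6 and adult endothelial libraries, 25880 to 131710 in their inputs, 39096 to 120456 in the E12 endothelial libraries and 98934 to 144197 in the E12 inputs. Filtered tags per library, in units of 1e6, ran from 10.1 to 59.1 over the E12 endothelial libraries and from 14.02 to 46.2 over the P6 and adult libraries. Of 8 endothelial marker genes, 5 have a start window in the promoter table, and each endothelial library had a peak at 4 or 5 of these 5, against 0 to 5 in the inputs. A few libraries stood apart in how many of the 192 regions they held. Adult retina endothelial replicate 2 held 62 of them (32.3%), adult lung endothelial replicate 2 held 59.4%, P6 brain endothelial replicate 1 held 64.6% and adult kidney endothelial replicate 1 held 74.0%, while the other 22 P6 and adult endothelial libraries held 81.3% to 100%. Without those 4 libraries the same rule gave 184 regions. It needs only 1 library per organ and age, and each of these groups kept another, so this change could alter the number little. The number rests on the other library in some of these groups. Without adult retina endothelial replicate 1, which held 191 of the 192 regions, the rule gave 62, and without adult lung endothelial replicate 1 it gave 115.

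The rule asks for a peak in each organ at both ages, so presence across the organs was set by it. The counts below ask for a peak in every library of a group, so 1 library with few of the regions lowers them. In the adult retina, replicate 1 held 191 regions and replicate 2 held 62. Adult lung replicate 2 (59.4%) and P6 brain replicate 1 (64.6%) likewise held fewer than the other libraries of their groups. All 192 had a peak in both P6 lung endothelial libraries, 189 in both P6 heart libraries, 177 in both libraries of P6 liver and of P6 kidney, 171 in all 3 P6 retina libraries and 120 in all 3 P6 brain libraries. In adults, 176 had a peak in both heart libraries, 162 in both liver libraries, 149 in both brain libraries, 140 in both kidney libraries, 109 in both lung libraries and 61 in both retina libraries. A region was present in a median of 24 of the 26 endothelial libraries, and the lowest number was 18. In 21 regions a peak was present in all 26. Where at least 2 libraries per organ and age had to hold a peak, 24 regions were left.

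**Figure D1:**
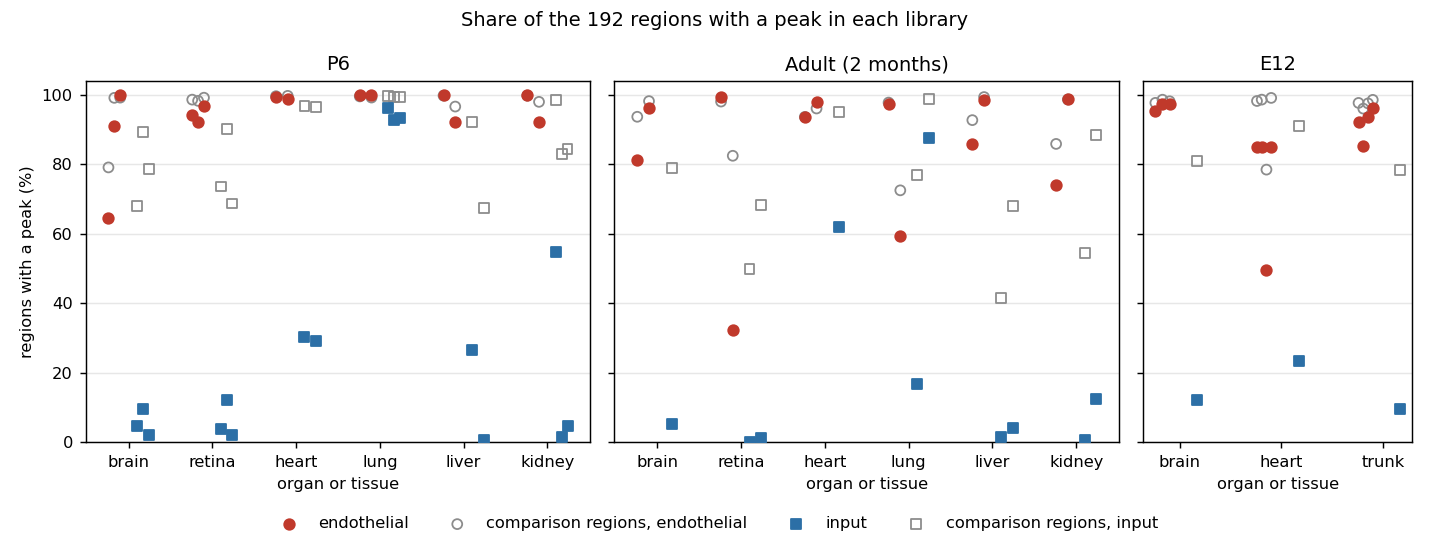
Share of the 192 regions (filled symbols) with a peak in each library, in percent, by organ and age; open grey symbols give the same for the 4860 comparison regions, circles are endothelial and squares input libraries. The P6 lung inputs lie at 92.7% to 96.4%, next to the endothelial libraries, while the inputs of brain and retina lie at 0% to 11.98%, and E12 heart endothelial replicate 3 lies at 49.5%.

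The inputs that held the regions were mainly those of the lung. The 3 P6 lung inputs held 96.4%, 92.7% and 93.2% of the regions, and adult lung inputs 1 and 2 held 16.7% and 87.5%. The adult heart input held 62.0%, the 2 P6 heart inputs 30.2% and 29.2%, P6 kidney input 1 held 54.7% and P6 liver input 3 held 26.6%. The remaining 16 P6 and adult inputs, among them all 9 of brain and retina, held 12.5% or fewer. Of the 1257 peaks that inputs had at the regions, 59.0% came from the 5 lung inputs, 18.5% from the 3 heart inputs and 11.3% from the 5 kidney inputs. In all, 191 of the 192 regions had a peak in a lung input, 179 of them in at least 3 of the 5. The exception lies 26642 bp from the nearest start, inside Fryl (chr5:73229433-73230057), and was chosen for mention after its values were seen: it had a peak in 24 endothelial libraries and in 1 input, the adult heart. Outside the lung, a region had a peak in a median of 3 of 21 inputs, and 141 of the 192 (73.4%) had none in any brain or retina input, against 4.71% of the comparison regions, a difference that the rule on inputs favours. The share of endothelial nuclei in each input was not measured, so open chromatin of endothelial cells within an input and open chromatin of other cells cannot be told apart. When the lung inputs were not counted, the limit of 8 inputs admitted 623 regions in place of 192.

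**Figure D2:**
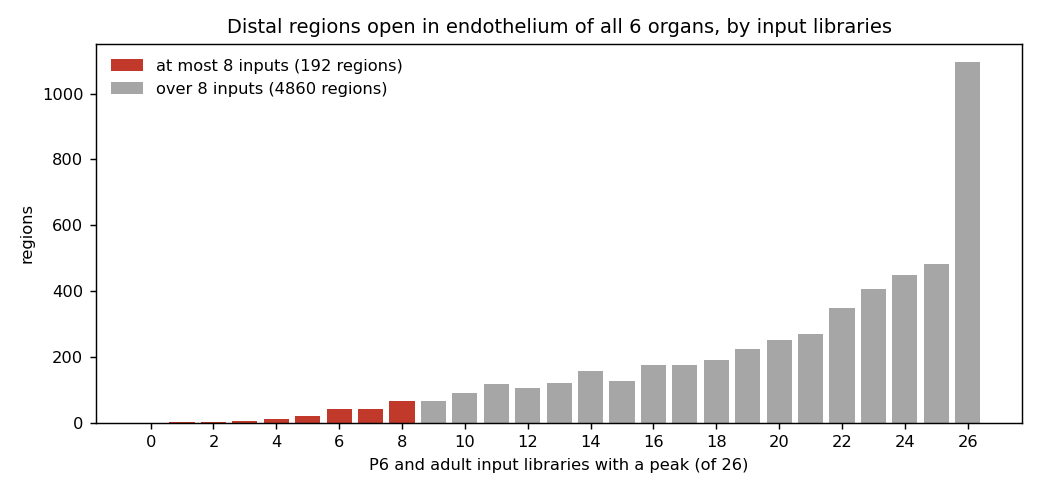
Number of distal regions open in endothelium of all 6 organs at both ages, by how many of the 26 P6 and adult input libraries also had a peak there; red bars are the 192 regions with at most 8 inputs and grey bars the 4860 comparison regions. The bars run without a gap from 66 regions at 8 inputs and 66 at 9 inputs to the highest bar at 26 inputs.

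The limit of 8 inputs does not fall in a gap of the distribution. A total of 66 of the 192 regions had exactly 8 inputs, 152 had 6 to 8, and 18 had at most 4. The 66 regions at 8 inputs had a peak in an average of 89.7% of the E12 endothelial and 22.2% of the E12 input libraries, and the 66 just outside, at 9 inputs, in 92.3% and 20.2%. Of the 192, the 10 that lay 2000 to 2500 bp from a gene start or end had averages of 80% and 3.33%, and the 8 regions excluded at 1500 to 2000 bp had 81.8% and 16.7%.

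At E12 the regions had a peak in most endothelial libraries and mostly none in input nuclei. Every one of the 192 had a peak in at least 1 of the 11 E12 endothelial libraries, 143 in at least 10 and 89 in all 11. The 3 brain endothelial libraries held 95.3%, 97.4% and 97.4% of the regions, while the brain input held 11.98%. The 4 heart endothelial libraries held 84.9%, 84.9%, 49.5% and 84.9%, and the heart input held 23.4%. The 4 endothelial libraries of the trunk held 92.2%, 85.4%, 93.8% and 96.4%, and the trunk input held 9.38%. Every endothelial library was above the input of its tissue, and the lowest endothelial value was above the highest input value. The mean over libraries was 87.5% ± 13.7 (SD, n = 11) in endothelial cells and 14.9% ± 7.48 (SD, n = 3) in inputs. Heart endothelial replicate 3 was the shallowest library, with 10.1 (in 1e6) tags and 39096 peaks, and without it the endothelial mean was 91.3%. The comparison regions, by contrast, were open in both: 78.5% to 99.1% of them had a peak in an endothelial library and 78.5% to 91.0% in an input. The 3 E12 input lists had a median of 141866 peaks and the 11 endothelial lists a median of 101233. Of the 192 regions, 130 (67.7%) had no peak in any of the 3 E12 inputs, against 6.38% of the comparison regions, and 51 (26.6%) had a peak in all 11 endothelial libraries and in no input, against 3.46%. The split by P6 and adult inputs favours low values of the 192 in the E12 inputs too, and in endothelial libraries the comparison regions had the higher mean, 96.3%. No E12 input is of the lung alone, whereas lung inputs gave 59.0% of the P6 and adult input peaks at the regions. The part of this choice of tissues in the low E12 input shares was not tested.

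Presence in the 11 endothelial and 3 input libraries was tested for each merged region with a two-sided Fisher's exact test, adjusted by the Benjamini-Hochberg method over the 151291 regions with an E12 peak. None of the 192 passed at 0.05, and neither did any other region (percent called: 0). The smallest p that 11 against 3 libraries allow is 0.00275, and the smallest adjusted p was 0.113. At an unadjusted p under 0.05, 65.1% of the 192 regions were present more often in endothelial than in input libraries and 0 less often (5.88% of all regions tested were), while 7.03% of all regions tested, 7.72% of the distal regions and 12.5% of the comparison regions were present more often. With strata for the 3 tissues 57.3% of the regions had such a p, beside 6.19% of all regions tested, and 0 passed after adjustment. These shares are descriptions of the set and no single region passed, so the design gives no call for any one of them. The rule asks for endothelial peaks in all 6 organs and few inputs at the later ages, which favours a high share here. Any merged region with a peak in at least 1 E12 library entered the test.

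**Figure D3:**
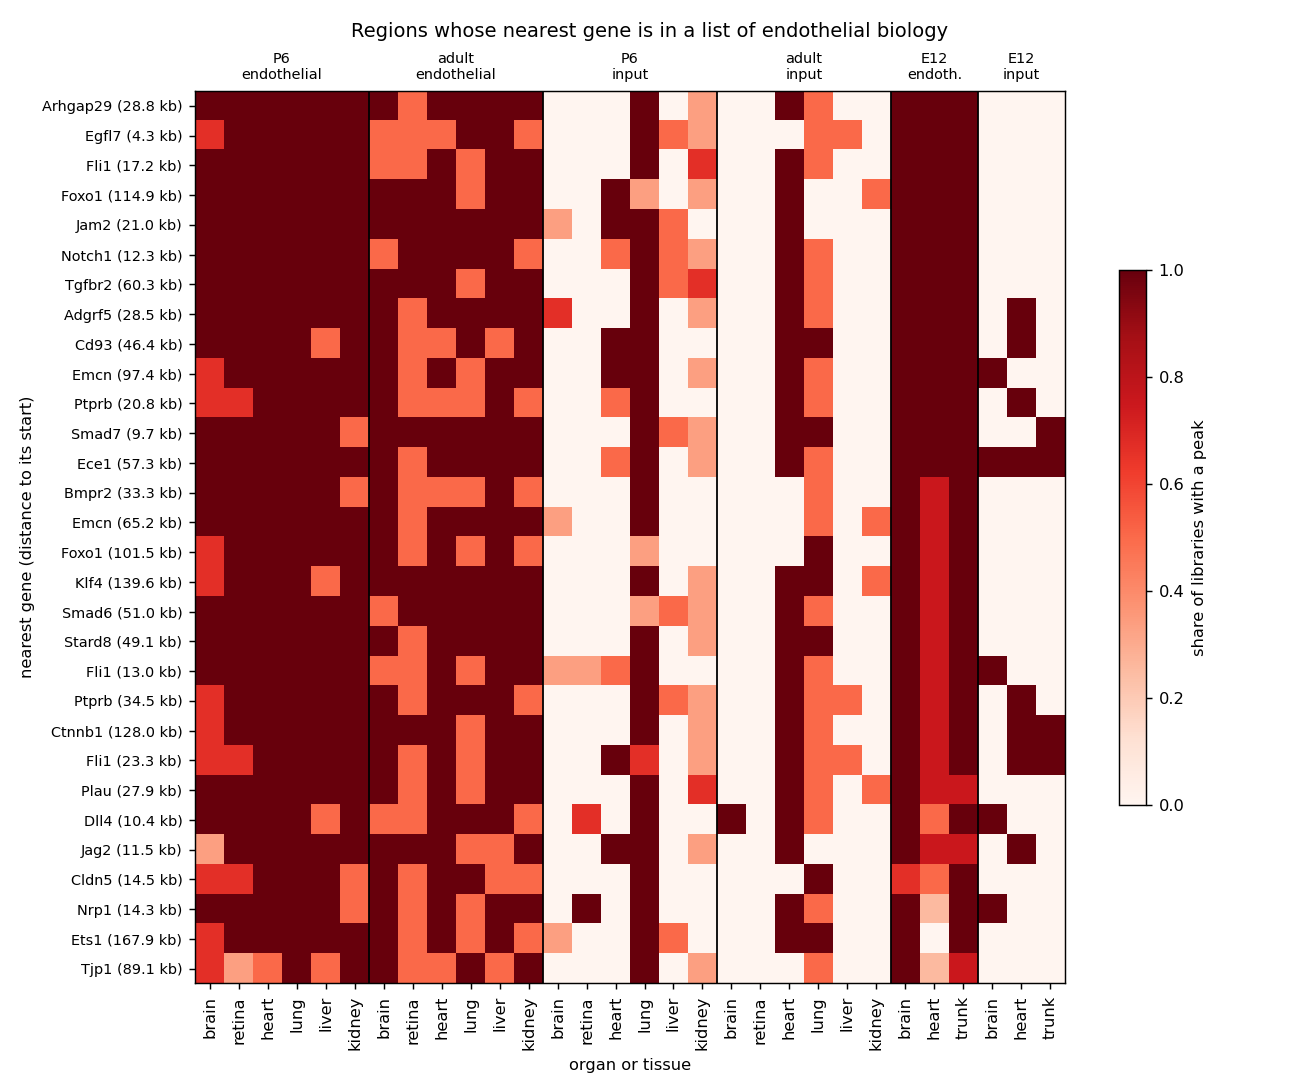
Share of libraries with a peak (colour, 0 to 1) for the 30 regions whose nearest gene is in a list of endothelial biology, in columns by organ, age and library kind; rows give the gene and the distance to its start in kb. The endothelial columns are mostly dark at all 3 ages, the input columns are dark mainly for the lung and the adult heart, and 17 of the 30 rows are empty in the 3 E12 inputs.

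The nearest genes include 25 genes from lists of endothelial biology, among them surface proteins, transcription factors and members of the Notch and BMP pathways. A region was counted for a gene where it lay inside the gene or within 50 kb of an end, and the nearest gene is the protein-coding gene with the nearest start. Across 9 lists of general endothelial biology, 22 of 146 genes (15.1%) had a region, against 376 of 21896 protein-coding genes (percent called: 1.72), and 25 of 146 (17.1%) were the nearest gene of a region, against a percent called of 0.845. The same lists were also rich in comparison regions: 103 of 146 genes (70.5%) had one, against 29.4% of all genes. The lists were chosen with earlier results of these data known, so these shares are a description. A region lay within 50 kb of 0 of 44 genes of 3 lists on organ-specific endothelium (brain barrier, liver sinusoid, and heart, lung and kidney vessels) and 0 of 55 genes marking blood, mural, connective or parenchymal cells, which at lists of this size is near the share over all genes. Comparison regions lay within 50 kb of 25% and 27.3% of them, and 1 gene of each set (2.27% and 1.82%) was the nearest gene of a region. These were at greater distance: Apcdd1, an inhibitor of Wnt signalling from the brain barrier list, was nearest to a region 72471 bp from its start, and Ptprc, the CD45 antigen of blood cells, was nearest to a region 554436 bp from its start. That region had the largest distance of all 192. Of the 30 regions whose nearest gene is in the 9 lists, 23 were present in at least 10 of the 11 E12 endothelial libraries, 17 had no peak in an E12 input, and 19 had an unadjusted p under 0.05. Of all 192 regions, 143 met the first of these conditions, 130 the second and 65.1% the third, shares near or above those of the 30.

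**Figure D4:**
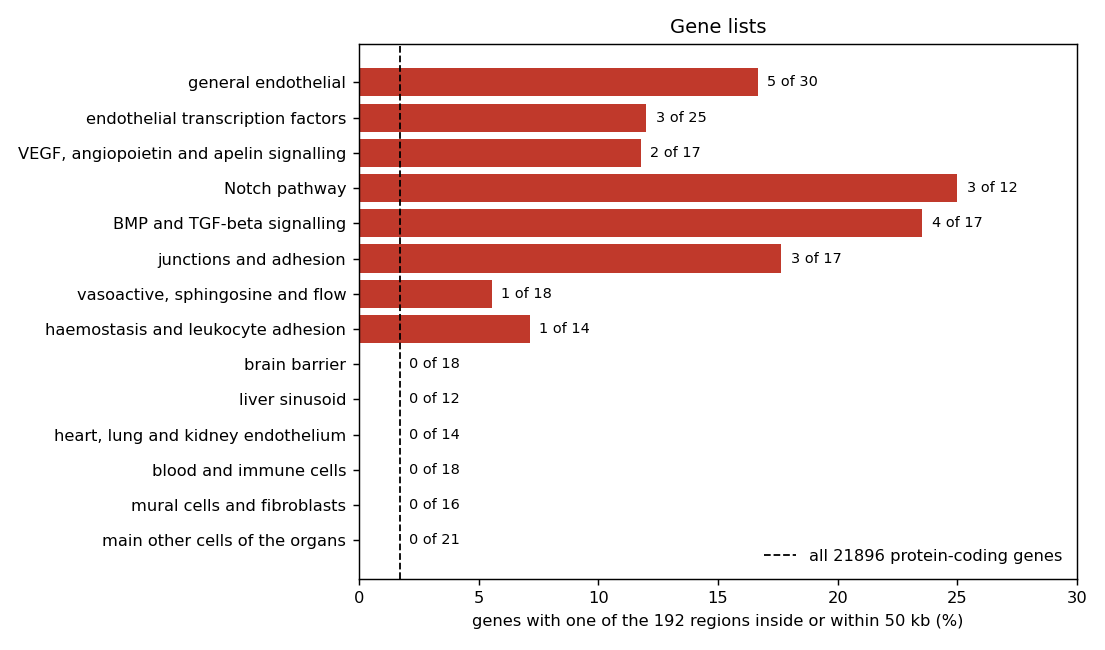
Percent of the genes of each list with a region inside or within 50 kb; red bars are 8 of the 9 lists of general endothelial biology, the numbers beside the bars give genes with a region of genes placed, and the dashed line is the share over all 21896 protein-coding genes (1.72%). The 6 other lists are at 0.

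Among surface and secreted proteins of endothelial cells, 5 of 30 genes of the general list had a region. The region of Egfl7 lay 4347 bp before its start (chr2:26575930-26576736) and had a peak in 21 of 26 endothelial libraries and 7 inputs, and at E12 in 11 of 11 and 0 of 3. That of Cldn5 lay 14518 bp from the start (chr16:18761571-18762329), with peaks in 20 endothelial libraries and 5 inputs and, at E12, in 8 of 11 and 0 of 3. Both thus had fewer endothelial libraries than the median region. The intronic or exonic position of regions inside genes was not resolved, since only gene bounds were at hand. The region inside Adgrf5, which holds the downstream start printed above, had a peak in 25 endothelial libraries and 8 inputs and at E12 in 11 of 11 and in 1 of 3. Ptprb, the vascular phosphatase that acts on the receptor Tie2, was nearest to 2 regions, 34545 bp from its start inside the gene (23 endothelial libraries, 8 inputs) and 20829 bp away inside the neighbouring Ptprr (20 and 6). Cd93, a glycoprotein of sprouting vessels, had a region 46403 bp away with 22 endothelial libraries and 8 inputs. Emcn, the sialomucin of capillaries and veins, was nearest to 2 regions 65175 and 97429 bp from its start, beyond the 50 kb window, which had peaks in 25 and 23 endothelial libraries.

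Among transcription factors, Fli1 was nearest to 3 regions, more than any other gene. All 3 lay inside the gene within 10957 bp of each other, 12974, 17175 and 23322 bp from the start (chr9:32529518-32530458, chr9:32525692-32526257 and chr9:32519502-32520110). They had peaks in 23, 23 and 22 endothelial libraries and in 8, 7 and 8 inputs. At E12 they were present in 10, 11 and 10 of the 11 endothelial libraries, and in 1, 0 and 2 of the 3 inputs. The middle region alone was thus empty in the E12 inputs. Foxo1, a factor that restrains endothelial growth, was nearest to 2 regions 12716 bp apart and over 100 kb from its start (chr3:52369866-52370501 and chr3:52383218-52383885). The farther one was present in 25 endothelial libraries, 6 inputs and 11 of 11 E12 endothelial libraries, and the nearer one in 22, 3 and 10. Neither had a peak in an E12 input. Ets1 (167926 bp away) and Klf4 (139625 bp away) were nearest to regions with 22 and 24 endothelial libraries, and these, with Ctnnb1 at 128009 bp and both Emcn regions, are the 5 list regions outside the 50 kb window. The Ets1 region was present in all 3 brain and all 4 trunk endothelial libraries at E12 and in 0 of 4 of the heart. Sox18 had a region within 50 kb that was nearer to the start of another gene.

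The Notch pathway had a region at its receptor Notch1 and at the ligands Dll4 and Jag2, 3 of the 12 genes listed. The Notch1 region lay inside the gene 12330 bp from its start (chr2:26490545-26491492). It was present in 24 endothelial libraries and 8 inputs, and at E12 in 11 of 11 and in 0 of 3 (Fisher's exact p = 0.00275, adjusted p = 0.113). The Dll4 region, 10390 bp away (chr2:119313877-119315394), was present in 22 endothelial libraries and 8 inputs and at E12 in 9 of 11 and 1 of 3. The Jag2 region, 11471 bp away inside the gene, was present in 22 and 7, and at E12 in 9 and 1. Of the 3, only the Notch1 region was free of E12 input peaks.

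In BMP and TGF-beta signalling, 4 of 17 genes had a region: the receptors Bmpr2 and Tgfbr2 and the inhibitory factors Smad6 and Smad7. All 4 regions lay inside the gene. The Tgfbr2 region (chr9:116114299-116115094, 60269 bp from the start) was present in 25 endothelial libraries, 8 inputs and 11 of 11 E12 endothelial libraries. The Bmpr2 region (chr1:59797573-59798571) was present in 21, 4 and 10. The Smad6 region, 50965 bp from the start (chr9:63970143-63971120), was present in 25, 5 and 10, and these 3 had no peak in an E12 input. The Smad7 region was present in 25, 8 and 11, and in 1 E12 input.

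In the junction list, Jam2, Cldn5 and Tjp1 had a region, 3 of 17 genes. Jam2, a junctional adhesion molecule, held a region 20985 bp from its start (chr16:84804553-84805395) that had a peak in all 26 endothelial libraries and 8 inputs, and at E12 in 11 of 11 and 0 of 3. The Tjp1 region, in the gene of the scaffold protein ZO-1, was present in 18 endothelial libraries, the lowest number of all, and in 7 of 11 at E12. In the VEGF list Nrp1, a co-receptor for VEGF, and Ptprb had a region, 2 of 17 genes. The Nrp1 region was present in 23 endothelial libraries and, at E12, in all 3 of brain, all 4 of trunk and 1 of 4 of heart. The Ece1 region was present in 25 endothelial libraries and 7 inputs, and at E12 in 11 of 11 and in all 3 inputs. Plau, the urokinase gene, had a region 27924 bp away with 24 endothelial libraries and 9 of 11 at E12.

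Of the 10 regions that ranked best by strength, 3 had a nearest gene in the 9 lists (30%), against 30 of all 192 (15.6%). Each peak carries the fold enrichment of the authors' peak caller, which is used only to rank peaks within its own list, with 100% for a list without a peak. The best median ranks over the 26 endothelial lists were 15.5% for a region 195358 bp from Hs3st1 (a heparan sulfate sulfotransferase) and 15.7% for a region inside Rell1. They were followed by regions nearest to Fam114a2 (17.8%), Foxo1 (19.2%, the farther of its 2 regions), Tgfbr2 (19.6%), Myo10 (20.8%), Ube2q1 (20.9%), Ints8 (22.9%), Prcp (23.1%) and Plau (23.3%). All but the Plau region were present in 11 of 11 E12 endothelial libraries, as were 89 of all 192. Of the 10, 8 were in 0 E12 inputs, as were 130 of all 192 (67.7%). The regions as a whole ranked lower than the comparison regions. Over the 26 endothelial lists the median rank of the members present ran from 31.1% to 85.5%, against 22.6% to 50.2%. Their median width was 807.5 bp (388 to 2379 bp), against 950.5 bp for the comparison regions and 435 bp for all merged regions. Ranks and widths come from the same P6 and adult lists that chose the regions, so both are a description. The Egfl7, Dll4, Smad7, Smad6 and Notch1 regions ranked low, with medians of 98.6%, 92.3%, 87.4%, 87.3% and 86.9%.

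The regions were scattered. They lay on 20 chromosomes and had 185 different nearest genes. Besides Fli1, 5 genes were nearest to 2 regions each, Foxo1, Ptprb, Emcn, Prkch (a protein kinase C) and Gatad2a (a subunit of the NuRD repressor). A total of 15 regions had another within 50 kb. The median distance to the nearest start was 24110.5 bp, 135 regions lay within 50 kb of it and 24 over 100 kb from it, and 115 (59.9%) lay inside a protein-coding gene, against 60.4% of the comparison regions. No region with a peak in all 26 endothelial libraries was free of input peaks. The lowest number of inputs among those 21 was 5, at the Cracr2b region printed above, which at E12 was present in 11 of 11 endothelial libraries and in 0 of 3 inputs. Its peaks ranked low, with a median rank of 83.3% over the 26 endothelial lists.

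A small group of regions had peaks after birth, as the rule requires, but in few E12 endothelial libraries. The counts that follow were not made for the comparison regions, of which each E12 endothelial library held 78.5% to 99.1%. E12 heart endothelial replicate 3, which held 49.5% of the 192, enters the heart counts here. Of the 192, 171 (89.1%) were present in at least 1 E12 endothelial library of each of the 3 tissues, 3 in none of the brain, 17 in none of the heart and 7 in none of the trunk. In all, 11 were present in at most 5 of the 11 E12 endothelial libraries, and the following were singled out after their values were seen. The region 63458 bp from Kitl, the ligand of the receptor Kit, was present in 10 of 12 adult, 11 of 14 P6 and 1 of 11 E12 endothelial libraries (chr10:99951320-99952157). That inside Gnaq, a G protein subunit, was present in 11 of 12 adult, 14 of 14 P6 and 1 of 11 E12 libraries (chr19:16214797-16215590). Those nearest to Aopep, Il33 and Gm34653 were each present in 2 of 11. In the other direction, 5 regions were present in all 3 E12 inputs, those nearest to Ece1, Rufy4, Acacb and Ing2 and 1 of the 2 of Prkch. Within the heart, the 11 regions rarely present at E12 had 8 of 44 possible peaks (regions times libraries) at E12, 21 of 22 at P6 and 22 of 22 in adults, and within the brain 17 of 33, 26 of 33 and 19 of 22. These regions were picked for their low E12 presence, and the rule requires a peak in each organ at the later ages, so the counts are a description. Lung, liver, kidney and retina have no E12 library of their own here, so for them age and organ cannot be told apart.

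The starts of the nearest genes had peaks in more inputs than the regions, which the rule holds to at most 8. A start window was in the promoter table for 69 of the nearest genes, and it had a peak in a median of 26 of 26 endothelial libraries and 25 of 26 inputs, against 7 and 11 over all 10582 genes with such a window. In over 8 inputs there were 56 (81.2%), against 52.1% of all. The Foxo1, Klf4 and Ece1 starts had peaks in all 26 endothelial libraries and all 26 inputs, Tgfbr2 in 26 and 24, Notch1 in 25 and 23, Dll4 in 26 and 19 and Cldn5 in 26 and 17. The Bmpr2 start had a peak in 11 endothelial libraries and 16 inputs. The window at the annotated Egfl7 start, printed above, had a peak in 12 endothelial libraries and 1 input, and in none of the 14 E12 libraries, where the region 4347 bp before it was present in 11 of 11 endothelial libraries.

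RNA of the nearest genes was then read in single brain cells enriched for the endothelial surface protein CD31, at E9.5, E12.5, P8 and in adults, with 1 library per age, so no test was made. Barcodes with UMIs (counted RNA molecules) of at least 3 of 8 endothelial marker genes were summed as the marker-rich class, 9420, 6600, 5923 and 3792 barcodes in that order of age. Barcodes with none of the 8 formed the marker-free class, with 2014, 386, 359 and 919 barcodes. A gene counted as higher at a ratio of summed CPM (a gene's UMIs scaled to the total UMIs of its class) of at least 2, among genes with 5 CPM or more in either class. Where a class had no UMI of a gene, 3 UMIs stood in for it in the ratio. Of the nearest genes measured, 35 of 124 (28.2%) were higher in marker-rich barcodes at E9.5, beside a percent called over all genes of 6.58. The counts were 77 of 140 (55%) at E12.5, beside 22.1, 101 of 146 (69.2%) at P8, beside 37.4, and 101 of 158 (63.9%) in adults, beside 32.1. Lower genes, at a ratio of at most 0.5, numbered 4, 8, 4 and 14 in order of age (3.23%, 5.71%, 2.74% and 8.86%), beside 8.22, 11.1, 17.6 and 22.9 percent of all genes. The median log2 ratio of the nearest genes was 0.47, 1.18, 1.49 and 1.501, and that of all genes 0.05, 0.45, 0.71 and 0.55. All genes here means every gene at that level other than the 8 markers, protein-coding or not. The nearest genes of the comparison regions were not read, so these shares are not set against theirs.

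**Figure D5:**
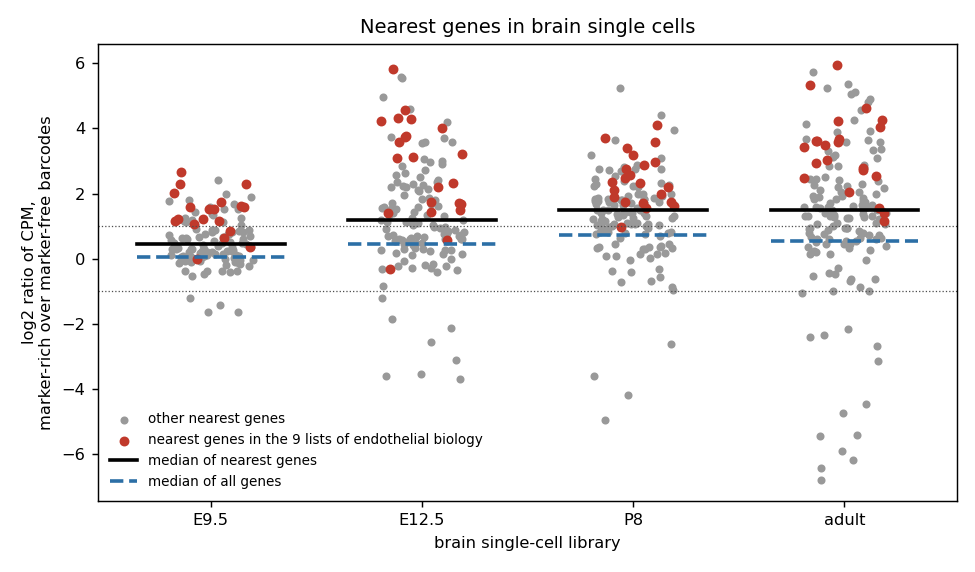
Log2 ratio of CPM in marker-rich over marker-free barcodes for the nearest genes of the 192 regions, in each brain single-cell library; red points are genes of the 9 lists, black bars the median of the nearest genes, dashed blue bars the median of all genes, dotted lines ratios of 2 and 0.5. The black bar lies above the blue bar at every age.

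The marker-free barcodes are the control of this comparison and differ from the others in more than their markers. Their median UMI count was 1513.5, 6590, 932 and 1147 in order of age, against 4874, 10253.5, 7276 and 4536. The 6 blood and immune markers were all detected in both classes and summed to 0.233% to 5.64% of UMIs in marker-free and 0.0339% to 0.449% in marker-rich barcodes. The 7 mural and fibroblast markers summed to 0.0154% to 0.191% and 0.00657% to 0.111%, lower in the marker-rich class except in adults (0.111% against 0.0841%), with Kcnj8 at 0 in the E9.5 marker-free class. The 7 neural markers summed to 0.0460% or less in either class and were lower in the marker-rich class except at E12.5 (0.00132% against 0.000741%), with Gfap at 0 in both classes at E9.5 and Aqp4 in both at E12.5, Snap25 at 0 in the marker-free class at E9.5, and Gfap and Olig2 at 0 in it at E12.5. The part of these cells and of depth in the ratios was not tested.

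The nearest genes in the 9 lists, which were chosen as genes of endothelial biology, were mostly higher in the marker-rich class. Leaving out Cldn5 and Emcn, which are markers here, 22 of these genes were measured, with 15 of 19 higher at E9.5, 20 of 22 at E12.5, 21 of 22 at P8 and 22 of 22 in adults, beside 6.58, 22.1, 37.4 and 32.1 percent of all genes, and 15 were higher at all 4 ages, beside 2.31 percent. Ptprb was at 43.3 against 10.7 CPM at E9.5, 83.1 against 1.5 at E12.5, 770.0 against 59.1 at P8 and 2056 against 33.2 in adults. Adgrf5 was at 70.1 against 11.1 CPM at E9.5 and 865.3 against 21.3 in adults. Notch1 was at 65.96 against 22.7 CPM at E9.5 and 215.0 against 38.4 in adults. The Notch receptor thus had a smaller ratio than the phosphatase Ptprb at each age, between 2.90 and 5.60 against 4.05 to 61.9. Fli1 had ratios of 3.04, 3.25, 5.10 and 8.17, and Egfl7 of 3.35, 11.9, 10.4 and 24.5. Exact Poisson 95% intervals cover counting error only. In adults they were 152 to 162 CPM against 13.5 to 26.46 for Fli1, and 926.8 to 950.9 against 30.1 to 48.2 for Egfl7. These UMIs were summed over barcodes of 1 library, and such intervals were not compared over all genes, so they do not single out Fli1 or Egfl7. Stard8 was an exception before birth, with ratios of 1.00 at E9.5 and 0.80 at E12.5, and 3.25 at P8 and 6.56 in adults. Smad7 had ratios of 1.57, 1.49, 3.33 and 2.64.

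Over all nearest genes, 164 were measured in at least 1 single-cell library, 27 had a ratio of at least 2 in all 4 (16.5%, against 2.31% of all 13292 genes measured) and 33 in none (20.1%, against 51.8%). Kitl, whose region was present in 1 of 11 E12 endothelial libraries, had a ratio of 11.9 at E12.5 (92.4 against 7.8 CPM) and 28.3 in adults (837.4 against 29.6). Ptprc was lower in marker-rich barcodes at all 4 ages, with 3.9 against 105.3 CPM in adults, although the region nearest to it had a peak in 25 of 26 endothelial libraries and, at E12, in 10 of 11 and in 0 of 3 inputs. Its start lies 554436 bp from that region.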

How the data were processed

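ATAC-seq peaks, per the file headers, were called by the authors with MACS2 2.1.2 for each library alone, without a control, as broad peaks in which tags were moved by -100 bp and lengthened to 200 bp, q limits were 0.05 and 0.1, and duplicates were kept to 1 tag per position. The deposited lists give, per peak, a fold enrichment (a ratio), used for ranks within a list, and a −log10 q-value, used only for stricter peak sets. Alignment used Bowtie2 to mm10, per the submitters' processing notes. The deposited single-cell matrices hold UMI counts from Cell Ranger; doublets were not called here.

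Peaks sharing 1 bp were merged, and a library held a region when a peak overlapped it by 1 bp. Gene bounds, names and start windows came from RefSeq GRCm38.p6. Strand was given for 17491 of 21896 protein-coding genes; for the nearest genes of 50 regions without it, the nearer gene end stood for the start. Of 185 nearest genes, 184 matched the single-cell features. Pairs of the single-cell libraries used here shared 2 to 31 barcodes, and peaks with identical coordinates made up at most 0.0557% of the shorter list of any replicate pair. Fisher's exact tests (scipy 1.17.1, Python 3.11.15) were checked on simulated data.

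The regions, lists and sequence words were chosen with earlier results of these data known. Most regions and genes are named by 4 rules: a nearest gene in the 9 lists within 50 kb, the 10 best median ranks, the genes with the most regions, and up to 5 regions nearest to genes of the last 3 lists; none met the further rule of all 26 endothelial libraries and no input. The others named, such as those with extreme counts of E12 libraries or lung inputs, were chosen after their values were seen. A search for sequence words in the regions themselves was planned and not run, since no genome sequence was used here. The alternatives tried were stricter or equal numbers of peaks, a larger required overlap, other limits on inputs, distance, libraries and windows, another exact test, and leaving out each library. Bulk RNA-seq and the E16.5 single-cell library are not analysed here. Of the 9 gene lists, 1 enters the totals and is not reported by itself here.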

Additional observations from a re-analysis of the deposited data

Results flagged for a closer look

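E12 heart endothelial replicate 3 had a peak at 49.5% of the regions, while the other 3 libraries of its group each had one at 84.9%, so the gap to the nearest of them spans the whole range of the group (1, against a critical value of 0.829 for 4 libraries). Of 2 groups with 4 to 10 libraries, this was the only one with such a library, and chance gives about 1 in 20 groups. The same library had a peak at 78.5% of the comparison regions, against 98.3% to 99.1% in the other 3, and, in units of 1e6, 10.1 filtered tags against 25.0 to 33.9. The part of depth in its low share was not tested. Without it, 139 of the 192 regions were present in all 10 remaining E12 endothelial libraries, and 88 of these in no E12 input.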

How the results depend on the processing

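The number of regions was 18 with at most 4 inputs, 695 with at most 13, 24 with at least 2 libraries per organ and age, and 623 without the lung inputs (chosen after seeing the data). Genes of the 9 lists with a region, 22, became 2, 49, 1 and 46 in that order. The mean E12 share in inputs, 14.9%, became 3.70% with at most 4 inputs, 29.7% with at most 13, 27.3% without the lung inputs and 4.59% with 19464 top peaks from every library; these rules choose other regions, and further causes were not tested. Leaving out 1 library gave 62 to 258 regions, 8 to 25 list genes, E12 shares of 86.1% to 91.3% in endothelial and 10.7% to 17.7% in input libraries, and 94 to 139 regions with an unadjusted p under 0.05, beside 4.12% (without E12 trunk input 1, the lowest count) to 10.2% (without E12 heart endothelial replicate 3, the highest) of all regions tested. The lowest count of regions and of list genes came without adult retina endothelial replicate 1, and 115 regions without adult lung endothelial replicate 1. Under all other alternatives, counts stayed within 1.5 times and shares within 1 SD. After adjustment, 0 regions passed in all 18 alternatives of the E12 test. At E12 the mean share of regions with a peak was 72.5 percentage points higher in endothelial than in input libraries, and 76.6 over the 3 pairs of 1 tissue and replicate number (a replicate block chosen after seeing the data; 61.5 in heart to 85.4 in brain). The numbers are not stated to mark shared animals. With the 3 tissues as strata, 110 of the 192 regions had an unadjusted p under 0.05, beside 6.19% of all regions tested, and the smallest adjusted p was 0.329. Without a genome, the wider window for sequence words was not run. The lists differed in depth and length, which the rank and the equal-number alternative only partly take into account. Their part in presence per list was not tested.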
